A study of Mus musculus with 8 samples.

Results

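The 39 protein-coding Hox genes of the mouse were followed in TC1 cells before and after differentiation. Members were all protein-coding genes of the GENCODE M21 annotation whose symbol is Hoxa, Hoxb, Hoxc or Hoxd with a number, and 39 of 32780 genes in the data qualified, represented by 82 transcripts. Cluster a holds 11 of them, cluster b 10, and clusters c and d 9 each. TC1 is a mouse embryonic stem cell line, labelled wild-type in every sample. Total RNA was taken from the cells at day 0, before differentiation, and from differentiated cells at day 10 of the protocol, with 4 libraries per day. The labels name no agent of the differentiation protocol and leave it unsaid if the libraries of 1 day are independent cultures. The p-values therefore rest on variation among these libraries, and that variation may be technical. Both days come from 1 cell line and share its genetic background.

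Hox genes encode homeodomain transcription factors that give positional identity along the head-to-tail axis of the embryo. Genes with the same number in different clusters are paralogues, and the number follows the order within a cluster. Low numbers act from the hindbrain backwards and high numbers in the trunk, tail, limbs and genital region. In embryos the clusters open from the low-numbered end over time under retinoic acid, Wnt and FGF signals, from a silent state held by polycomb complexes. Hox proteins bind DNA with TALE homeodomain partners of the Pbx, Meis and Pknox families.

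The homeobox is the most conserved stretch of these genes, and it bears on how reads are shared between paralogues. Of all distinct words of 31 bases in a gene's transcripts, Hoxb4 shared 0.874% with other Hox genes and Hoxb3 shared 0.664%. Hoxa6 shared 3.32%. Larger shares lay within a cluster, namely 9.26% for Hoxd3 and 12.1% for Hoxd4, and 7.34% for Hoxc10 with Hoxc5. Overlap with other genes at the same place was wider. Hoxb3 shared 52.7% of its words in all, most of them with Hoxb3os on the opposite strand, and Hoxd3 shared 61.2% and Hoxd4 49.1%, mainly with the overlapping gene Gm28230. Hoxa11 shared 33.9%, all with Hoxa11os on the opposite strand, and Hoxb2 26.5% with Hoxb3os. Levels of these members are uncertain to that extent, since the counting is not stated to use strand.

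Hox RNA was present in both states and higher in total after differentiation. Levels are given as TPM (transcript abundance scaled to the same total in every library), a unit that corrects for transcript length and allows levels of different genes to be compared. Summed over the 39 genes, the level was 16.9, 20.0, 18.3 and 20.4 TPM in the day 0 libraries and 122.02, 97.6, 104 and 110 TPM in the day 10 libraries. The days did not overlap, and the day 10 mean of 108 ± 10.4 TPM (SD, n = 4) was 5.73 times the day 0 mean of 18.9 ± 1.63 TPM (n = 4). At day 0, 8 members averaged at least 1 TPM, and at day 10, 26 members did. In bulk RNA, fewer cells of a type and less RNA per cell cannot be told apart.

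The cluster that contributed most differed between the days. Cluster a supplied 11.5 ± 0.992 TPM at day 0 and 25.6 ± 2.14 TPM at day 10 (SD, n = 4). Cluster b supplied 3.94 ± 0.550 and 56.9 ± 6.34 TPM, which is 14.4 times as much. Cluster a thus made up 57.9 to 63.9% of Hox RNA in the day 0 libraries and 22.0 to 25.4% in the day 10 libraries, and cluster b 19.0 to 22.4% and 49.9 to 54.4%. Cluster c went from 2.13 ± 0.381 to 15.8 ± 2.93 TPM and cluster d from 1.30 ± 0.440 to 10.1 ± 2.57 TPM, and their shares were 11.4 and 6.77% of Hox RNA at day 0 against 14.5 and 9.31% at day 10. No test was made on these sums.

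**Figure D1:**
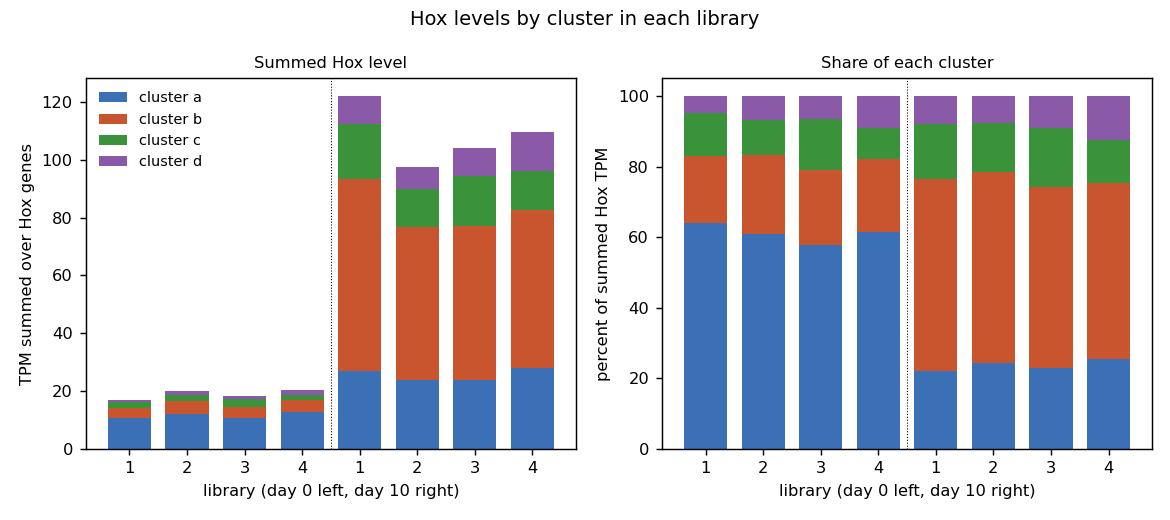
Summed TPM of the Hox genes (left) and the percent of it from each cluster (right) in each of the 8 libraries, stacked by cluster. Cluster a is the widest band at day 0, at 57.9 to 63.9%, and cluster b at day 10, at 49.9 to 54.4%.

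Of the 39 members, 18 rose between day 0 and day 10, 2 fell, 7 were tested and not called, and 12 had too few counts to be tested (edgeR's quasi-likelihood test, adjusted p under 0.05 over 15097 genes). In the same test 42.7% of all tested genes rose and 39.4% fell, 82.1% in all. Of the 18 members that rose, 16 reached the minimum of the low-count filter in every library of day 10 but not of day 0. Their passing thus leaned on the day with the higher level, and the count of 18 is a description. The remaining members, Hoxa10 and Hoxb4, reached it in all 4 libraries of day 0. Over all 39 members without any filter, 25 had every day 10 library above every day 0 library on TPM. For 1, Hoxb13, every one was below. The shares in these directions were 26.7% and 12.6% of all 32780 genes, and 49% and 24.6% of the 15097 tested genes. The median log2 change of the 27 tested members was 2.84, also with members of 0 to 3 counts on a day set at their bound or count ratio, against 0.06 for all tested genes. Since 16 of the 27 reached that minimum in every library of day 10 but not of day 0, this median is a description too. It supports no comparison with other genes. On TPM the median of all tested genes was shifted to 0.45 (log2 of TPM + 0.1, limma), 52% of them were called higher and 27% lower against 42.7% and 39.4% on counts, and the median of the tested members was 2.94. On log2(TPM + 1) the medians were 1.27 for the tested members and 0.40 for all tested genes. With the trend of change with transcript length removed, 40.3% of all tested genes fell, and 1 member did, as on the TPM scale.

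**Figure D2:**
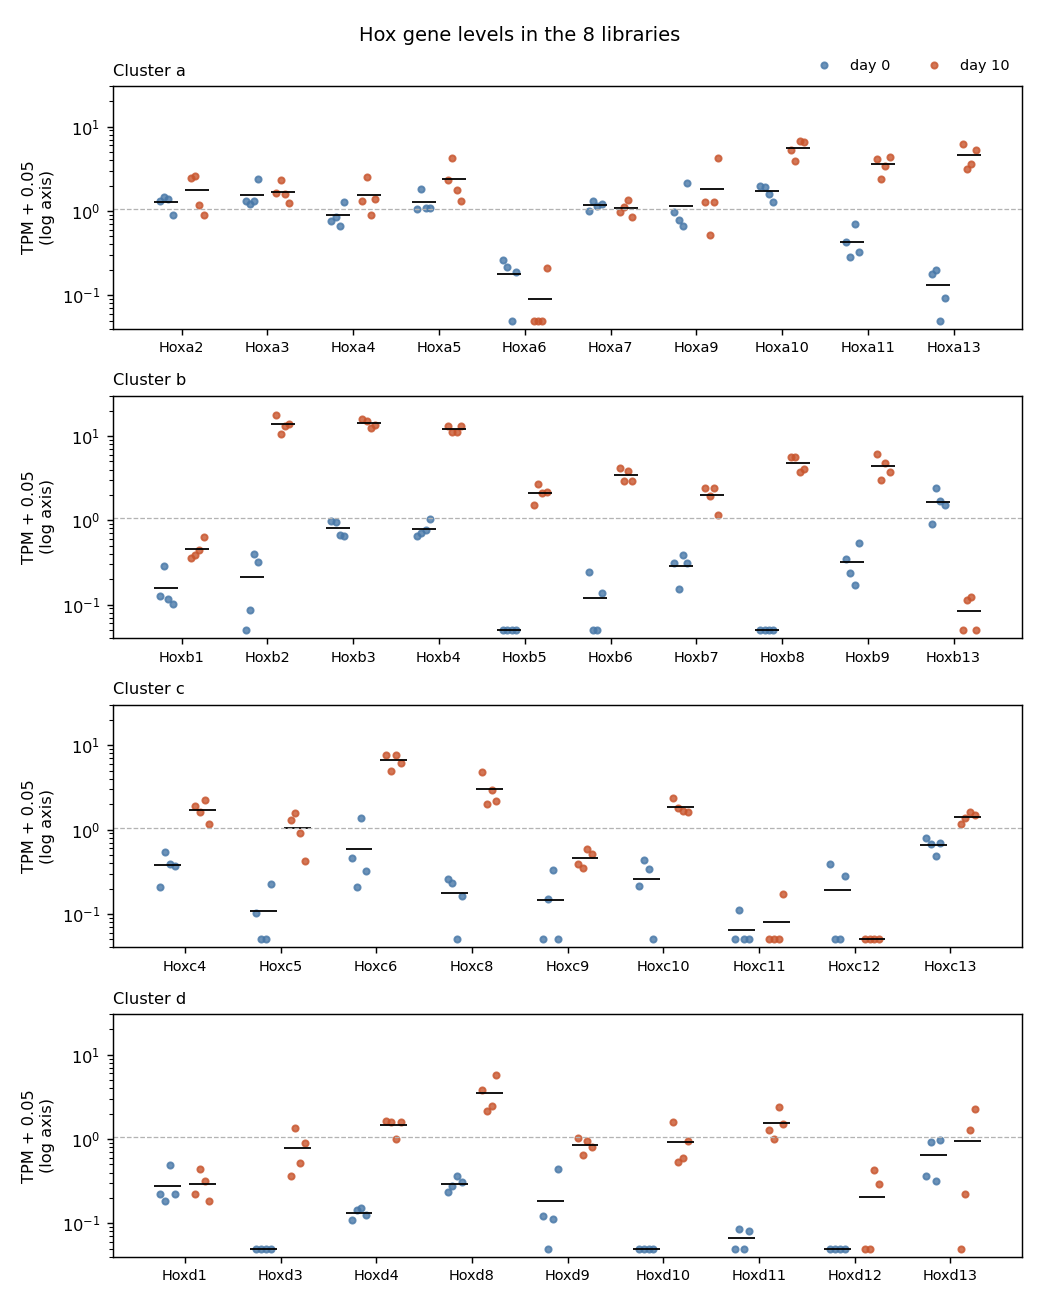
TPM + 0.05 on a log axis for 38 of the Hox genes, by cluster and in order of paralogue number, with 1 point per library (4 at day 0 in blue, 4 at day 10 in red), black bars at the means and a dashed line at 1 TPM. Hoxb2 to Hoxb9 stand higher at day 10, Hoxb13 stands lower, and the days overlap for Hoxa2 to Hoxa9.

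The members that rose sat at different positions in clusters a and b. In cluster a, 3 of 10 tested members rose, and they were the 3 with the highest numbers, Hoxa10, Hoxa11 and Hoxa13. In cluster b, 7 of 8 tested members rose, from Hoxb2 to Hoxb9, and only the outlying Hoxb13 fell. In cluster c 5 members were tested and rose, and in cluster d 3 of 4. Each of these 8 reached the filter minimum in every library of day 10 but not of day 0. So did Hoxa11, Hoxa13 and the cluster b members that rose, except Hoxb4. The shares of tested members by cluster, and those by position below, thus follow in part from the filter. Over all members, tested or not, the day 10 libraries were all above day 0 on TPM for 3 of 11 in cluster a and 9 of 10 in b. This held for 7 of 9 in c and 6 of 9 in d. The share was 26.7% of all genes and 49% of the tested genes. By position over the clusters, 5 of 9 tested members numbered 1 to 4 rose, 6 of 8 numbered 5 to 8, and 7 of 10 numbered 9 to 13. Differences between clusters or positions were not tested.

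**Figure D3:**
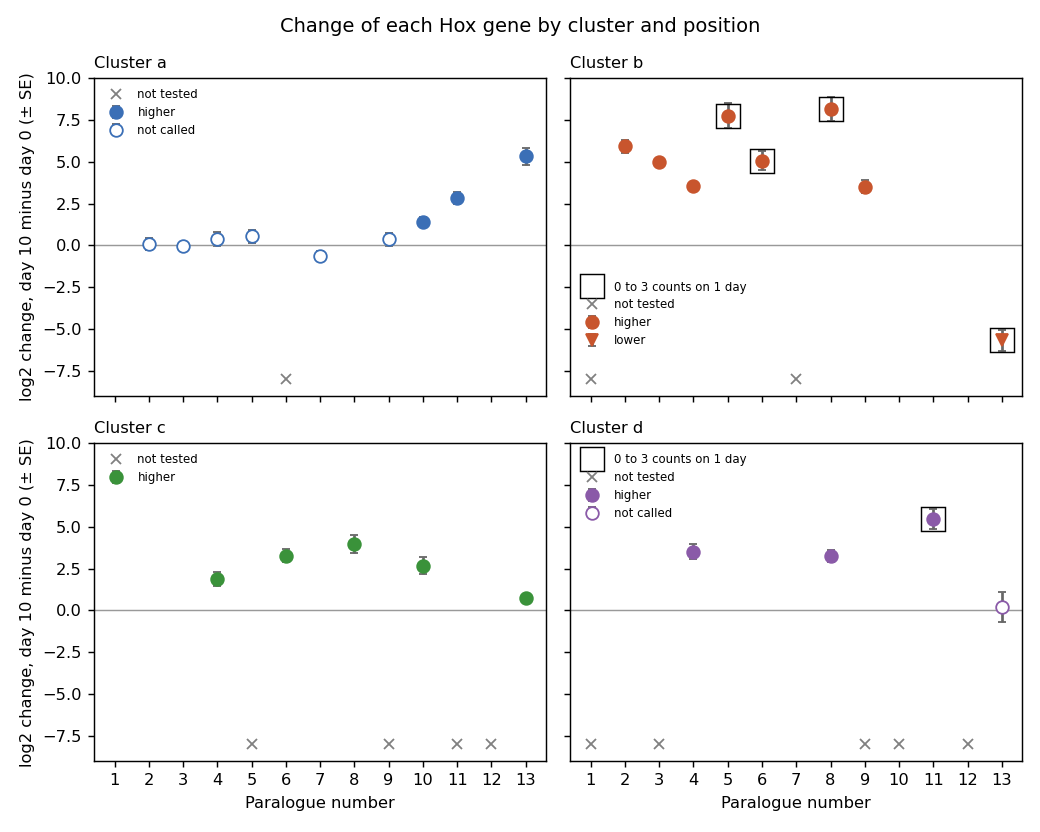
Fitted log2 change from day 0 to day 10 (± SE, 4 libraries per day) against paralogue number for 38 Hox genes, 1 panel per cluster. Filled symbols passed the test, open symbols did not, crosses at the bottom had too few counts to be tested, and squares mark genes with 0 to 3 counts on a day, whose fitted value depends on the prior count. In cluster a the values lie near 0 from Hoxa2 to Hoxa9 and reach 5.33 at Hoxa13, and in cluster b they are above 3 up to Hoxb9 and -5.68 at Hoxb13.

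The highest Hox levels of the series belonged to Hoxb2, Hoxb3 and Hoxb4 at day 10. Hoxb2, which patterns hindbrain segments, was at 0, 0.0373, 0.343 and 0.268 TPM at day 0 and at 17.5, 10.5, 12.9 and 13.98 TPM at day 10. Hoxb3, a neighbour with roles in hindbrain and blood progenitors, was at 0.930, 0.914, 0.618 and 0.604 TPM and then at 15.9, 15.2, 12.5 and 13.5 TPM. Each day 10 library of both genes was above every day 0 library, and at day 10 Hoxb2 varied more than Hoxb3. The log2 changes were 5.94 ± 0.39 (SE) for Hoxb2, adjusted p = 3.51e-09, and 5.01 ± 0.20 for Hoxb3, adjusted p = 2.65e-11, the smallest p among the members (edgeR's quasi-likelihood test). With an offset for the average transcript length the change of Hoxb3 was 3.85. Hoxb4, a regulator of haematopoietic stem cells, was at 0.602, 0.649, 0.724 and 0.974 TPM and then at 13.1, 11.0, 11.0 and 13.1 TPM (log2 3.58 ± 0.20, adjusted p = 6.12e-10). At day 10 the means of Hoxb2 and Hoxb3, 13.7 ± 2.93 and 14.3 ± 1.55 TPM (SD, n = 4), differed by less than either SD. Hoxb4, at 12.04 ± 1.21 TPM, was below Hoxb3 in each of the 4 libraries.

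Further members of cluster b were not detected in the stem cells at this depth. Hoxb5 and Hoxb8, which act in the cervical and thoracic trunk, had 0 counts in the 4 day 0 libraries. At day 10 Hoxb5 was at 1.47, 2.62, 2.05 and 2.09 TPM and Hoxb8 at 5.51, 5.58, 3.72 and 3.95 TPM. With 3 counts summed over the day 0 libraries as the limit, Hoxb5 was at least 33.6-fold and Hoxb8 at least 44.1-fold higher at day 10 (adjusted p = 2.26e-06 and 8.58e-07, edgeR's quasi-likelihood test). Hoxb6 had 3 counts at day 0 and 135 at day 10, a ratio of 38.4 with a 95% exact counting interval of 12.9 to 189. Library 1 held 2 of the 3 counts of day 0, and without that library the fitted log2 change was 6.10 against 5.07, values that depend on the prior count. Hoxb9, the last member before the gap to Hoxb13 and a gene of the thoracic rib cage, went from 0.300, 0.185, 0.118 and 0.485 TPM to 6.04, 2.94, 4.75 and 3.66 TPM (log2 3.53 ± 0.40, adjusted p = 1.30e-06, edgeR's quasi-likelihood test). Hoxb7 was not tested, with 9 counts at day 0 and 63 at day 10, and its day 10 TPM values of 1.11 to 2.39 were all above those of day 0. Hoxb1, the first gene of the cluster, had 7 and 24 counts and reached 0.407 ± 0.125 TPM at day 10 (SD, n = 4).

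Hoxb13, a gene of the tail bud and, in adults, of the prostate and hindgut, ran the other way. It was at 0.850, 2.36, 1.65 and 1.48 TPM in the day 0 libraries and at 0, 0.0644, 0.0729 and 0 TPM in the day 10 libraries. On TPM it was the only member whose day 10 libraries were all below day 0, with 113 counts against 2, a ratio of 0.0151 (95% exact counting interval 0.00181 to 0.0559). The fitted log2 change was -5.68 ± 0.62, adjusted p = 9.69e-07 (edgeR's quasi-likelihood test). Genes beside it on the chromosome were also lower at day 10. Calcoco2, an autophagy receptor gene, fell from 231 to 4 counts (log2 -5.93 ± 0.41) and Gm53, a gene between Hoxb13 and Hoxb9, fell from 427 counts (log2 -1.82 ± 0.23). Ttll6, a tubulin-modifying enzyme gene, had 44 and 1 counts, a ratio of 0.0194 (interval 0.000481 to 0.114), and was not tested.

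The promoter windows of Hoxb8, Hoxa13 and Hoxa5 are printed because the genes had different outcomes: Hoxb8 had no counts at day 0, Hoxa13 rose, and Hoxa5 was not called. Each holds the 250 bases before the RefSeq start (GRCm38.p6), 5′ to 3′ on the gene's strand, with CCAAT and TATAAA in capitals on either strand (read ATTGG and TTTATA for the opposite one).
Hoxb8, chr11:96281655-96281904, plus strand: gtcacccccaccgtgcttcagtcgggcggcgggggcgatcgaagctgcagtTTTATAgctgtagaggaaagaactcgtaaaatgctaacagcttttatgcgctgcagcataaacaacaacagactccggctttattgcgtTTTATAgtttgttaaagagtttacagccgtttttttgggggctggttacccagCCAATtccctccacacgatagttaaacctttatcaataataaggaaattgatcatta
Hoxa13, chr6:52260881-52261130, minus strand: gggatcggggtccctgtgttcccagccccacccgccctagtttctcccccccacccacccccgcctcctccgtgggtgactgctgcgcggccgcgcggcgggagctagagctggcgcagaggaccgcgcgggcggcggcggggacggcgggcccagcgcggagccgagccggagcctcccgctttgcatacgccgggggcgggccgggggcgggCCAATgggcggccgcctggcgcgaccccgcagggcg
Hoxa5, chr6:52204588-52204837, minus strand: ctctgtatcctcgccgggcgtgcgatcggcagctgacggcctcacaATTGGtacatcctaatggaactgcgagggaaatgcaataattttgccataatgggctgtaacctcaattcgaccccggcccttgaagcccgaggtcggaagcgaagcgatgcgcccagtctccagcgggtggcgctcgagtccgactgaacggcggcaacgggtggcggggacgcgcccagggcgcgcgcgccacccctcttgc
The RefSeq table held 24 windows for 22 of the 39 members. CCAAT occurred in 14 of the 24 (58.3%) against 33.8% of 32851 promoter windows of the same length, and TATAAA in 4 (16.7%) against 12.4%. The other motifs searched, on both strands and with overlaps allowed, were TGATTNAT, bound by Hox-Pbx pairs, in 8.33% of the Hox windows against 2.82%, TTTATG, bound by Cdx proteins, in 20.8% against 10.8%, AGGTCA, a nuclear receptor site, in 6 of 24 windows against 14.02%, and GGGCGG, the GC box, in 41.7% against 32.7%. The Hox windows had a median of 12.5 CpG sites against 6, and a GC content of 58.6% against 52.4%. Hoxa13 carried 35 CpG sites, Hoxa5 28 and Hoxb8 12. These matches describe the letters only.

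The tested members of cluster a from Hoxa2 to Hoxa9 had RNA in both states, and none of them rose. Hoxa5, which acts in lung development, was at 1.02, 1.78, 1.02 and 1.03 TPM at day 0 and at 2.26, 4.23, 1.74 and 1.26 TPM at day 10. Its days overlapped, through library 2 of day 0. Hoxa2, Hoxa3, Hoxa4, Hoxa5, Hoxa7 and Hoxa9 had day 10 means of 1.03 to 2.37 TPM against 0.839 to 1.502 TPM at day 0. Their fitted log2 changes ran from -0.64 ± 0.30 for Hoxa7 to 0.54 ± 0.38 for Hoxa5. None passed the test, and the days overlapped on TPM for each. On counts scaled to library size, every day 10 library of Hoxa7 was below day 0 (adjusted p = 0.061, edgeR's quasi-likelihood test). An absent call does not show that their levels were equal.

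The far end of cluster a rose. Hoxa10, a gene of the lumbar spine, uterus and blood progenitors, was at 1.94, 1.88, 1.54 and 1.24 TPM and then at 5.24, 3.85, 6.64 and 6.51 TPM (log2 1.42 ± 0.28, adjusted p = 0.000266, edgeR's quasi-likelihood test). Hoxa11, which patterns the forearm and kidney, was at 0.374, 0.232, 0.645 and 0.276 TPM and then at 4.08, 2.35, 3.31 and 4.33 TPM (log2 2.84 ± 0.36). Hoxa13, of the autopod, cloaca and allantois, was at 0.129, 0.150, 0 and 0.0436 TPM and then at 6.18, 3.06, 3.60 and 5.26 TPM (log2 5.33 ± 0.49, adjusted p = 1.44e-07). None of the 3 overlapped between days, and in each of them library 2 was the lowest of day 10. The TPM-weighted mean paralogue number of cluster a was 5.10 ± 0.192 at day 0 and 7.96 ± 0.866 at day 10 (SD, n = 4), while that of cluster b was 7.76 ± 0.732 and 4.22 ± 0.124. At day 0 Hoxb13 had the highest level of cluster b.

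Clusters c and d had low levels at day 0, and no member averaged 1 TPM there. Hoxc6, a thoracic gene, was at 0.410, 0.160, 1.32 and 0.277 TPM and then at 7.58, 4.90, 7.60 and 6.18 TPM, the highest of its cluster (log2 3.29 ± 0.39, adjusted p = 2.61e-06, edgeR's quasi-likelihood test). Hoxc8, its neighbour in the thoracic range, was at 0.211, 0.182, 0 and 0.115 TPM and then at 4.80, 1.99, 2.89 and 2.16 TPM (log2 3.99 ± 0.54). Both were apart between the days, although day 0 library 3 of Hoxc6 reached 1.32 TPM. Hoxc4 and Hoxc10 rose by 1.89 ± 0.39 and 2.68 ± 0.52 on the log2 scale, to 1.68 ± 0.468 and 1.80 ± 0.340 TPM. Hoxc13, a gene of hair and nail, had the smallest fitted change among the members that rose. It was at 0.755, 0.631, 0.433 and 0.637 TPM and then at 1.10, 1.32, 1.56 and 1.43 TPM (log2 0.72 ± 0.30, adjusted p = 0.0376). That call ended in DESeq2 (adjusted p = 0.0768, with 42.9% of all genes higher), without the low-count filter (adjusted p = 0.111) and when any 1 of 6 libraries was left out (adjusted p = 0.0503 to 0.115), namely library 2, 3 or 4 of either day.

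In cluster d, Hoxd8, a trunk gene, was at 0.182, 0.225, 0.309 and 0.261 TPM and then at 3.81, 2.12, 2.42 and 5.63 TPM (log2 3.27 ± 0.38, adjusted p = 1.71e-06, edgeR's quasi-likelihood test). Hoxd4, which acts at the hindbrain boundary, rose from 0.0827 ± 0.0194 to 1.40 ± 0.306 TPM (log2 3.51 ± 0.46). Hoxd11, a partner of Hoxa11 in the forearm and kidney, had 2 counts at day 0 and 127 at day 10, a ratio of 54.2 (95% exact counting interval 14.7 to 453). Hoxd13, a gene of digits and genitalia, was at 0.312, 0.865, 0.268 and 0.925 TPM and then at 0, 0.170, 1.22 and 2.20 TPM. Its day 10 libraries lay on both sides of day 0, and it had the largest adjusted p of the members (log2 0.18 ± 0.90, adjusted p = 0.856). Its sign followed single libraries, and without day 10 library 4 the change was -0.86.

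Of the 12 members that were not tested, 5 were in cluster d. Hoxd3 went from 0 to 51 counts, at least 14.5-fold higher. Hoxd10 went from 0 to 42 counts, at least 11.96-fold higher, and Hoxd12 from 0 to 11, at least 3.13-fold higher. The counts of Hoxd12 were 0, 0, 6 and 5 in the day 10 libraries, which overlap day 0, and the bound was 1.83-fold without library 3. Hoxd9 had 10 and 47 counts, Hoxc5 6 and 80, and Hoxc9 7 and 27, each with all day 10 libraries above day 0 on TPM. On counts scaled to library size the days overlapped for Hoxc9. Hoxd1 had 13 and 12 counts. Hoxa6, Hoxc11 and Hoxc12 had 3 and 1, 1 and 2, and 4 and 0 counts, too few to compare. In the fit without a low-count filter, in which 31.5% of all genes were higher, 6 of the 12 passed, each of them higher, namely Hoxb7, Hoxc5, Hoxd3, Hoxd9, Hoxd10 and Hoxd12.

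For some members the RNA counted was largely not the coding transcript. Hoxa10-203, annotated as a processed transcript, held 68.5% of the Hoxa10 level at day 10, and protein-coding transcripts held 2.61 to 61.2% of it across the 4 libraries. With protein-coding transcripts only, when 41.7% of all genes were higher, the change of Hoxa10 was 0.90 (adjusted p = 0.206) and its call ended, whereas that of Hoxa11 was 4.15 and held. Hoxd11 had too few counts in coding transcripts to be tested, so 2 rather than 3 members of cluster d were called. Hoxc10 likewise had no test once transcripts overlapping another Hox gene were left out. At Hoxd3 the retained-intron transcript Hoxd3-206 held 69.4%. Hoxc6 and Hoxb2 had 65.3 and 87.3% in coding transcripts, and Hoxa13, Hoxb4 and Hoxb9 had 100%. These splits rest on how the quantification shared reads between overlapping transcripts.

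**Figure D4:**
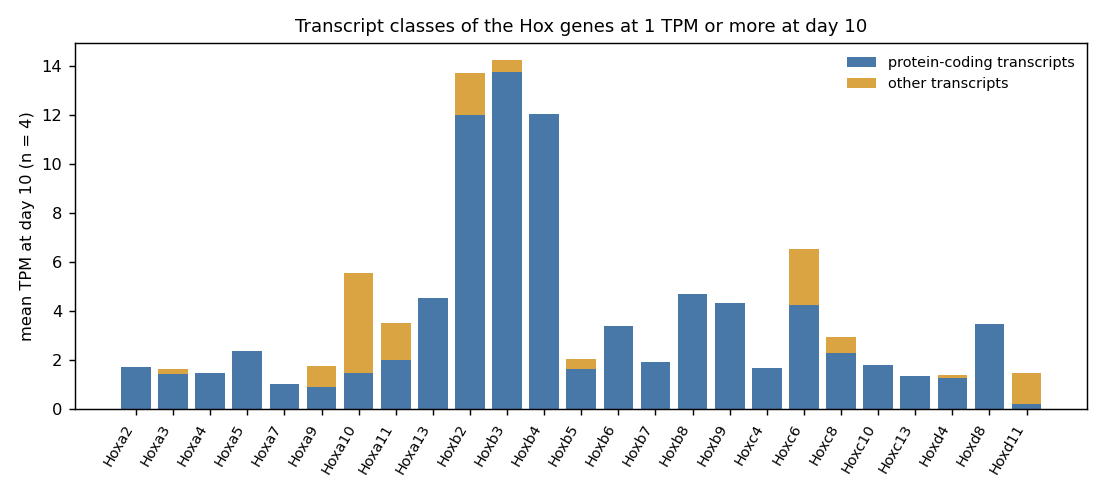
Mean TPM at day 10 (4 libraries) of 25 Hox genes at 1 TPM or more, split into protein-coding transcripts (blue) and other transcripts (yellow), in order of cluster and number. The other transcripts make up most of Hoxa10 and of Hoxd11, where Hoxd11-201 holds 84.4% of the level.

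Hoxd11 has 2 RefSeq starts, and its RNA at day 10 was assigned mainly to the upstream one. Hoxd11-201, a processed transcript whose annotated start lies within 1 base of the upstream RefSeq start, was at 1.21, 0.819, 1.58 and 1.45 TPM at day 10. Hoxd11-202, the protein-coding transcript from the downstream start, was at 0, 0.140, 0.793 and 0 TPM. The upstream transcript was the higher in each of the 4 libraries. The 250 bases before each start (GRCm38.p6, 5′ to 3′, plus strand) are printed to show how they differ.
Hoxd11 upstream, chr2:74679308-74679557: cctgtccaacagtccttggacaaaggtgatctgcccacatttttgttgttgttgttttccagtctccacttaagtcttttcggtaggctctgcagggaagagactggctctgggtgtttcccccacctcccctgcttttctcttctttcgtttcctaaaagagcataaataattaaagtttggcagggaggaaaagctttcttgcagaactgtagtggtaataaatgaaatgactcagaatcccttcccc
Hoxd11 downstream, chr2:74682073-74682322: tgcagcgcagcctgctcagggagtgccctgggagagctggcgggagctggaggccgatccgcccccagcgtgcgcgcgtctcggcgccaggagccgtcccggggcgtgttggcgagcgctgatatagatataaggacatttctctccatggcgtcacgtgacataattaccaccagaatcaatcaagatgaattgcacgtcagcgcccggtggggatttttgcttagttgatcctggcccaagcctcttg
The upstream window held 2 CpG sites at a GC content of 44.8%, and the downstream window 20 at 60.4%. Neither held CCAAT or TATAAA.

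Within day 10, library 2 had less RNA of the high-numbered members than the other libraries. Among the 26 members at 1 TPM or more, library 2 was the lowest of the 4 for 6 of 8 numbered 9 to 13, with a median ratio of 0.610 to the mean of the other libraries. The ratio was 0.213 for Hoxa9, 0.628 for Hoxa10, 0.602 for Hoxa11, 0.610 for Hoxa13, 0.611 for Hoxb9 and 0.572 for Hoxd11, while Hoxc10 and Hoxc13 were not lowest there, with 0.966 for the latter. For members numbered 1 to 4 the median was 1.09, with library 2 lowest for 2 of 9, and for those numbered 5 to 8 it was 0.958, with library 2 lowest for 3 of 9. Those lowest in library 2 included Hoxb2 (0.707), Hoxc6 (0.688), Hoxc8 (0.606) and Hoxd8 (0.538), so the lower level was not confined to high numbers. Library 2 was the highest for Hoxa2, Hoxa3, Hoxa4 and Hoxa5, with ratios of 1.57 to 2.41, and for Hoxb5 (1.40) and Hoxb8 (1.27). Over all 14147 tested genes at 1 TPM or more, library 2 was the lowest for 22.6% and the highest for 38.3%, with a median ratio of 1.04. Members numbered 9 to 13 summed to 18.3 TPM in library 2 and 30.7 ± 2.19 TPM in the other 3 (27.6 ± 6.44 TPM over all 4). Markers of cell types moved with this library too. Of 11 such lists, library 2 had the lowest day 10 sum in 5, the highest in 4 and one between the others in 2. It was lowest for blood, at 146 TPM against 183 to 207, lateral plate mesenchyme, at 535 against 562 to 665, intermediate mesoderm, at 117 against 130 to 178, neural crest and hindbrain segments. It was highest for gut endoderm, at 134 TPM against 69.0 to 120, pluripotency genes, at 203 against 132 to 172, paraxial mesoderm and the neural list. The summed level of 16 neural and spinal cord markers was 261 TPM against 81.3 to 89.2 TPM in the other 3. Sox2, also a pluripotency gene, was at 52.5 TPM against 14.2 to 15.4. Map2, a neuronal microtubule gene, was at 69.6 TPM against 22.9 to 28.1. Sox2 counts in both the neural and the pluripotency sum, and the place of library 2 as highest for pluripotency genes rests on it. The part of these markers in the Hox pattern was not tested.

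**Figure D5:**
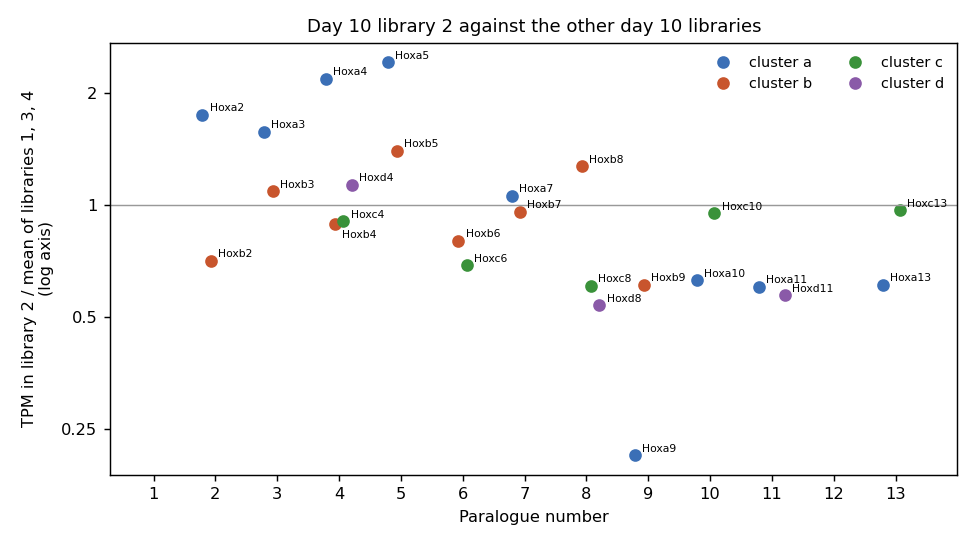
TPM in day 10 library 2 divided by the mean of day 10 libraries 1, 3 and 4, on a log axis, against paralogue number for 25 Hox genes at 1 TPM or more, coloured by cluster. Members numbered 9 to 13 lie below 1, with a median of 0.610, and Hoxa2 to Hoxa5 lie above 1.5.

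Most DNA-binding partners of Hox proteins rose too. Of 9 TALE cofactor genes tested, 7 rose, 1 fell and 1 was not called. The shares were 77.8% higher and 11.1% lower, against 42.7% and 39.4% of all tested genes. Meis2 rose from 9.83 ± 0.725 to 491 ± 61.7 TPM (SD, n = 4; log2 4.97 ± 0.10) and Meis1 from 5.77 ± 1.42 to 66.6 ± 2.22 TPM (log2 3.34 ± 0.09). Pbx4 fell from 7.18 ± 1.70 to 3.62 ± 0.840 TPM (log2 -1.10 ± 0.30). The median log2 change of the list was 2.38. At day 10 the level of Meis2 stood above the 108 TPM of all Hox genes together.

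Of the signals known to open Hox clusters, genes of the retinoic acid pathway were mostly higher, for synthesis and for breakdown. Wnt ligands moved in both directions. The tested FGF ligands fell or were not called, and the TGF-beta family ligands Gdf11 and Mstn rose. In the retinoic acid list 12 of 17 tested genes rose, 3 fell and 2 were not called, with a median log2 change of 2.28. The shares were 70.6% higher and 17.6% lower, against 42.7% and 39.4% of all tested genes. Aldh1a2, the main retinoic acid synthesis enzyme of the embryo, rose from 1.11 ± 0.264 to 29.9 ± 5.06 TPM (log2 4.29 ± 0.19), and Rxra, a partner receptor, by 2.28 ± 0.11 on the log2 scale. Aldh1a1, a second synthesis enzyme, had 1 and 414 counts, a ratio with a 95% exact counting interval of 63.1 to 13997. The breakdown enzyme Cyp26b1 rose from 0.295 ± 0.0828 to 7.18 ± 2.86 TPM (log2 4.70 ± 0.31). Cyp26a1, of the same kind, was not called (50.4 and 60.9 TPM), and Cyp26c1 had 1 and 33 counts and was not tested. The level of retinoic acid itself was not measured. Rarg, a retinoic acid receptor, fell from 106 ± 7.48 to 16.9 ± 3.73 TPM (log2 -3.20 ± 0.07). Of 12 tested genes in a list of posteriorising factors, 3 rose, 6 fell and 3 were not called (median log2 -0.83). The shares were 25% higher and 50% lower, against the same 42.7% and 39.4%. The list held 8 tested ligands, of which 3 rose (Wnt5a, Gdf11 and Mstn), 3 fell (Wnt8a, Fgf4 and Fgf17) and 2 were not called. Its other falls were those of the transcription factor T and of the RNA-binding proteins Lin28a and Lin28b. Fgf17, an FGF ligand, and Wnt8a, a Wnt ligand of the primitive streak, fell by 4.34 and 4.21 on the log2 scale. Fgf4, an FGF ligand of stem cells, fell from 15872 counts to 3, and Wnt5a, a ligand of outgrowing mesenchyme, rose by 5.85 ± 0.16. Of the 6 ParaHox and Cdx genes, relatives of the Hox genes, 1 was tested. Cdx2, a regulator of posterior Hox genes, rose from 0.313 ± 0.209 to 1.38 ± 0.616 TPM (log2 1.78 ± 0.48). Members that were not tested lay in both directions: Cdx1 had 26 and 0 counts, at least 10.1-fold lower, Gsx1 had 26 and 4, and Cdx4 had 10 and 3, a ratio of 0.256 (95% exact counting interval 0.0453 to 0.995), while Pdx1 had 2 and 15 and Gsx2 2 and 7.

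Chromatin regulators of the clusters moved in both directions. Of 14 trithorax-type activators 4 rose, 7 fell and 3 were not called (median log2 -0.17). Dpy30 and Wdr5, core subunits of the methyltransferase complexes, and Psip1 fell by 1.30 to 3.29 on the log2 scale, and Ash1l, a histone methyltransferase, rose by 1.39 ± 0.07. Of 20 polycomb genes 7 rose, 11 fell and 2 were not called (median log2 -0.34). Phc1, a PRC1 subunit, and Jarid2 and Mtf2, accessory subunits of PRC2, fell by 2.66, 1.59 and 1.54 on the log2 scale. Against 42.7% higher and 39.4% lower of all tested genes, the shares were 28.6% higher and 50% lower for the trithorax list, and 35% higher and 55% lower for the polycomb list.

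Of the 24 protein-coding genes nearest to the clusters, 3 on each side, 20 were tested, of which 2 rose (Atf7 and Calcoco1, both beside cluster c), 15 fell and 3 were not called. The shares were 10% higher and 75% lower on counts, against 42.7% and 39.4% of all tested genes. On TPM the days were apart for 7 of the 15 and overlapped for 8, and the means of Smug1, Mtx2 and Nfe2l2 were not lower at day 10. The falls on counts ran from -0.37 ± 0.15 on the log2 scale for Smug1 beside cluster c to the -5.93 of Calcoco2. The homeobox genes at the high-numbered ends were not tested: Evx1 beside cluster a had 1 and 51 counts, a ratio of 43.6 (7.47 to 1753, 95% exact counting interval), and Evx2 beside cluster d had 0 and 44, at least 12.5-fold higher. Day 10 library 4 held 28 of the 44 counts, and without it the bound for Evx2 was 6.42-fold. Inside the clusters, 3 of 20 other genes in the data were tested. Hoxb3os rose (3 and 89 counts, ratio 25.3, interval 8.39 to 125), Gm53 fell, and Hoxaas2 was not called (log2 0.47 ± 0.29). Hoxa11os had 18 and 98 counts, Hoxd3os1 had 0 and 24, at least 6.83-fold higher, and Hotair had 1 and 1. Since antisense RNAs share sequence with their partners, Hoxb3os cannot be told apart from Hoxb3 over that overlap.

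The depth was 11242568 to 15808039 estimated counts in a day 0 library and 13525255 to 17843651 in a day 10 library. All 10 pluripotency genes were called lower on counts. Without Klf4, 9 of them summed to 4773 to 5373 TPM in the day 0 libraries and 29.1 to 83.5 TPM at day 10. Klf4 (log2 -0.19 ± 0.07 on counts) was at 93.1 to 98.1 TPM and then, on that scale, higher, at 103 to 124 TPM. Of all tested genes, 42.7% were called higher and 39.4% lower on counts, and the calls of each list are to be read beside these shares. Markers of several mesodermal types were higher beside the Hox genes: lateral plate mesenchyme with 11 of 12 tested genes called higher (summed 133 to 148 TPM at day 0, 535 to 665 at day 10), blood 8 of 8 (11.9 to 13.8, 146 to 207), endothelium 7 of 8 (37.1 to 48.1, 233 to 276), cardiomyocytes 8 of 8 (28.4 to 32.4, 445 to 680) and intermediate mesoderm 4 of 6 (48.7 to 56.0, 117 to 178). The sum of the last list was mostly Wt1, at 124 ± 27.6 TPM at day 10 (SD, n = 4). Without it the list went from 42.2 to 48.5 TPM to 12.3 to 25.7 TPM, and Sall1 and Pax8 fell (log2 -3.27 ± 0.36 and -3.98 ± 0.63). Of 5 tested neural crest genes 3 rose and 1 fell (23.9 to 29.97, 184 to 225 TPM). Ets1 and Snai2, at 153 and 42.5 TPM, made up most of the day 10 sum, and without them it went from 13.98 to 17.9 TPM to 9.38 to 12.5 TPM. Foxd3, a gene of early neural crest and of stem cells, fell from 699 counts to 3, and Sox10 had 0 and 10 counts. Other lists were mixed or lower in sum: hindbrain segments 3 higher and 2 lower of 6 (156 to 215, 159 to 177 TPM), neural and spinal cord 2 higher and 5 lower of 10 (437 to 455, 81.3 to 261 TPM), and gut endoderm 4 higher and 1 lower of 7 (173 to 182, 69.0 to 134 TPM). Epcam, the gut endoderm gene called lower, made up most of that list's day 0 sum. It fell from 148.1 ± 8.09 to 41.4 ± 10.07 TPM (SD, n = 4). The gut endoderm sum is thus lower through Epcam and does not describe the 4 genes called higher. In the paraxial mesoderm list 3 of 5 rose and 2 fell (100 to 136, 5.98 to 9.55 TPM). Its day 0 sum was almost all Tcf15, which fell from 116 ± 17.3 to 1.92 ± 0.373 TPM. The lower sum thus follows Tcf15 and does not describe the other genes of the list. The defining markers Msgn1 and Ripply2 were at 0 on both days. Egr2, which drives Hoxa2 and Hoxb2 in the hindbrain, rose from 3 counts to 3737, a ratio with a 95% exact counting interval of 364 to 5160. In the same list Gbx2 fell from 130 ± 28.1 to 0.561 ± 0.557 TPM (log2 -7.87 ± 0.33). Hoxb2 rose and Hoxa2 was not called, and a link to Egr2 was not tested. Which of these cells carried the Hox RNA was not tested.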

How the data were processed

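The authors deposited 1 table per library with, per the file headers, the length, effective length, estimated count and TPM of 126126 transcripts. The tools kallisto and DESeq2 are named, per the submitters' processing notes, without their roles. The transcript reference, like the build, was not given in the sources used here. Transcripts were matched by identifier to GENCODE M21 (117992, 93.6%), and the 8134 unmatched ones held 1.15 to 1.23% of counts. The deposited estimated counts and TPM values were summed per gene. The estimated counts were rounded and analysed with edgeR 4.0.16 under R 4.3.3, using the default expression filter, TMM factors and a robust quasi-likelihood fit, with Benjamini-Hochberg adjustment over 15097 genes and a threshold of 0.05. Each SE was derived from the log2 change and its F statistic. The biological coefficient of variation was 12.5%. The fit was tested on simulated data. Alternatives used DESeq2 1.42.0, limma 3.58.1 on log2(TPM + 0.1) and log2(TPM + 1), other scalings, filters and transcript sets, a replicate block and each library left out.

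For 0 counts the floor is 3 counts over the group, and intervals and floors cover counting error only. Shared words were counted in M21 transcripts, and printed sequences are RefSeq promoters (GRCm38.p6). M21 coordinates are not given because the authors' build is unknown. Members, lists and the rule for named genes were chosen with earlier results of these data known, and motifs after the values were seen. The rule gave in full, per cluster, the 2 members highest at day 10 and the highest-numbered one at 1 TPM or more, every member called lower, and those with the smallest and largest adjusted p, and from each other list up to 3 called genes in the main direction and 1 in the other. Other members and Evx1, Evx2, Calcoco2, Ttll6, Smug1, Mtx2, Nfe2l2, Map2, Klf4, Sall1, Sox10, T, Lin28a, Lin28b, Gdf11, Mstn, Cyp26a1, Cyp26b1, Cyp26c1, the other ParaHox genes and the antisense genes were named, and the list sums without their leading genes chosen, after their values were seen. Some genes that the rule names, and some sequences, are not reported here.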

Additional observations from a re-analysis of the deposited data

Results flagged for a closer look

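In 8 of 72 groups of 4 libraries with a Hox gene above 0 TPM, 1 library lay far from the other three. Chance alone marks about 1 in 20 such groups, a rate that does not apply to 3 of the 8 (Hoxc11 on both days and Hoxa6 at day 10), where the other libraries were all at 0 and a single library with any count is marked by construction. At day 0, Hoxa3 was at 2.34 TPM in library 4 against 1.15 to 1.27 in the others, and Hoxa5 was at 1.78 TPM in library 2 against 1.02 to 1.03. At day 0, Hoxb1 was at 0.233 TPM in library 2, Hoxd1 at 0.442 TPM in library 3 and Hoxc11 at 0.0605 TPM in library 2, all values from a few counts. At day 10, Hoxc11 was at 0.122 TPM and Hoxa6 at 0.160 TPM in library 4, while the other libraries of that day held 0. Hoxd4 was at 0.940 TPM in library 3 of day 10 against 1.53 to 1.57 TPM in the others, and all 4 stood above day 0.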

How the results depend on the processing

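Of 511 values of the 27 tested members under 19 alternatives, 484 kept their direction and their side of the threshold, 13 lost the call and 14 turned sign. Those that turned sign belonged to members without a call. Hoxa2 was at -0.052 without day 0 library 4 and at -0.14 without day 10 library 1 or 2, and ranged from -0.14 to 0.310 over the libraries left out. Hoxa3 was at 0.14 and 0.086 on log2(TPM + 0.1) and log2(TPM + 1), at 0.028 with protein-coding transcripts only, and at 0.077 and 0.056 without library 4 of day 0 or of day 10. Hoxa9 was at -0.055 without day 10 library 4 and at 0.650 without day 10 library 2. Hoxd13 was at -0.22 on log2(TPM + 0.1), at -0.14 with the replicate block, at -0.02 and -0.05 without day 0 library 1 or 3, and at -0.86 without day 10 library 4 and 0.557 without day 10 library 1. Calls were lost for Hoxa10 and Hoxc13, among others. The count of members that fell was 1 instead of 2 with the length trend removed and on both TPM scales. The count that rose was 16 to 23 over all alternatives, and in cluster d it was 7 instead of 3 without a low-count filter. Over all alternatives the 62 calls in the pathway lists were 58 to 65 and the 19 among genes in and beside the clusters 17 to 25. The summed level at day 10 was 22.1 TPM for cluster a and 49.1 TPM for cluster b on length-scaled CPM. The members at a mean of 0.5 TPM or more numbered 14 at day 0, and those at 5 TPM or more numbered 0 at day 0 and 5 at day 10. The cause of these shifts was not tested.

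No pairing by replicate number was seen. Deviations of same-numbered libraries correlated at 0.03, 0.06, 0.04 and 0.00 across genes, and those of differently numbered ones at -0.10 to 0.06. These values cannot exclude a shared culture or batch, because a weak link would go unseen and the labels do not explain the numbers. With the replicate block 17 members rose instead of 18, the call lost being that of Hoxc13 (adjusted p = 0.0841, edgeR). Leaving out 1 library gave 17 to 21, with 41.1 to 42.7% of all tested genes higher. Members with a mean under 1 TPM rest on few counts per library, which limits what could be tested at this depth.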
